A study of Rattus norvegicus with 6 samples.

Results

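Poly(A) signal probes are the array oligonucleotides whose own letters hold a hexamer that marks where a messenger RNA is cut and given its tail. They were chosen from sequence alone, as every probe holding AATAAA, the canonical signal, or ATTAAA, its commonest variant. Of 45751 different probes on the array, 9334 (20.4%) met this rule. The canonical hexamer alone was held by 6892 probes, the variant alone by 2259 and both by 183. The comparison class was 2404 probes that held neither hexamer but did hold TTTATT or TTTAAT, the reverse complements of the same letters. The other 34013 probes held none of the 4. Each hexamer was searched on both strands, and copies that overlap each other or another motif were counted. AATAAA was found in 15.5% of all probes, ATTAAA in 5.34%, TTTATT in 4.18% and TTTAAT in 2.96%, and 789 members also held a reverse complement.

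The RNA came from INS-1, an insulin-secreting cell line grown from a rat insulinoma and used in place of primary beta cells, although the tissue field of the labels reads islet. Geniposide was given to 3 samples at 10 µmol/L for 24 h, and 3 samples were untreated. Geniposide is an iridoid glucoside of gardenia fruit that the labels class as a GLP-1 receptor agonist. Each sample was hybridised to a 1-colour Agilent array of 60-base probes, and no label tells if samples within a group were grown as separate cultures. Any p-value here thus reflects the spread among these samples alone, possibly a technical one. The probes carry running numbers instead of gene names, so beta cell markers were not analysed here.

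In the nucleus, the cleavage and polyadenylation specificity factor binds the AATAAA hexamer of a nascent transcript, the RNA is cut a short way downstream, and poly(A) polymerase adds the tail to the new end. ATTAAA is bound less well, and TGTA elements upstream of the hexamer are bound by cleavage factor I, which helps to choose among sites. Low Input Quick Amp labelling, the kit named in the labels, starts copying RNA from the poly(A) tail.

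The brightest members of each class are shown first, as windows of 30 bases written 5′ to 3′ with the hexamers of the rule in capitals. In the members with both hexamers listed here, the variant and the canonical signal overlap in the same run of letters.
RATLNCRNA_377, canonical: gcctttgctgttAATAAAtagtttatatcc
RATLNCRNA_28724, canonical: ccctctgcaatgAATAAAacctttgaaaga
RATLNCRNA_21444, variant: tccaggttttcaATTAAAcggattattttt
RATLNCRNA_13567, variant: ctgcatgtgactATTAAAaaccctgaaaag
RATLNCRNA_38060, both: atcagtcATTAAAATAAAacaagccttcgt
RATLNCRNA_9933, both: cacgtggatcagacATTAAAATAAAacaag

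The next set is 1 family of 7 members with related sequences that share 25 or more bases. Their AATAAA aligns with one another but lies at different distances from the probe end, and letters beside it differ in some. The windows are ordered by that distance, from 4 to 19 bases.
RATLNCRNA_8924: tgtcctatgctgtttttacaAATAAActtg
RATLNCRNA_34476: ctatgctgtttttacaAATAAActtgagac
RATLNCRNA_42373: tgctgtttttacaAATAAActtgagacaag
RATLNCRNA_4792: tgctgtttttacaAATAAActtgagacaag
RATLNCRNA_27642: gctgcttttacaAATAAActtgagaaaagg
RATLNCRNA_45180: gctgtttttacaAATAAActtgagcaagga
RATLNCRNA_23770: gctgtttttacaAATAAActtgagacaagg

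The members with the smallest p-values between geniposide and untreated arrays are shown because the comparison of the 2 groups is described through them. The first 6 hold the canonical hexamer and the last 6 the variant, and in each 6 the first 3 were higher and the last 3 lower with geniposide.
RATLNCRNA_10324: aacttgggtaaaAATAAAgcagcttatagg
RATLNCRNA_1588: tggattcttccaAATAAAaactcatctcat
RATLNCRNA_33182: cttcggtgattcAATAAAaagaattatagc
RATLNCRNA_12839: ctgacctgtattAATAAAgttgcacaggcc
RATLNCRNA_19640: aacAATAAAgaaagaaaactatctgtaacc
RATLNCRNA_27731: ccctcagtcttaAATAAAgacccagatgca
RATLNCRNA_40495: gttctacatgtgATTAAAaacatcaaaagg
RATLNCRNA_30867: tgtagagacatccagcacactccATTAAAa
RATLNCRNA_26384: gatactgtagaagaccATTAAActatatgc
RATLNCRNA_16997: cttggtctcattATTAAActtcaggttctg
RATLNCRNA_22146: ccagaagtaatttattttttATTAAAgttg
RATLNCRNA_45214: tgaagacacctcATTAAAgttctggtctaa

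A last set holds members that could be placed at the 3′ end of a RefSeq gene of rat build GRCr8, with the gene beside the probe number. It is shown because the hexamer's distance to an annotated RNA end can be read there.
RATLNCRNA_19914, Ndufa13: gccgacgtgcatAATAAAgaatagtcaaat
RATLNCRNA_42842, Ndufa13: AAAgaatagtcaAATAAActgttgactctt
RATLNCRNA_23959, Cox7a2: ttaactgccaccAATAAAgcagtccttaac
RATLNCRNA_44109, Sympk: ctagagctttgccttaacacaAATAAAgga
RATLNCRNA_19841, Camta2: atacgaattgccATTAAAcgtctctgcacc
RATLNCRNA_4600, Smim8: tcagctactgaaatcatgATTAAAtgaaag
RATLNCRNA_16109, Tspan8: tgtgaaggacatAATAAAagtggtcgtgta
RATLNCRNA_34165, Unc13c: ggcatatgcattAATAAAtggatgtatatt

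On every array 1319 of the 62976 spots were controls, and 0 probe spots were saturated. Between 61.3% and 67.4% of analysed probes were well above background, the scanner software's own detection mark. Of the members, 9327 were analysed, since 7 had no unmarked spot on some array, and 6675 of those (71.6%) were tested, because every array of 1 or both groups showed them well above background. The same filter kept 29246 of 45718 probes (64.0%) on the whole array. A total of 1469 members (15.7%) shared 25 or more bases with another member on the same strand, in 682 families of at most 7, so members are not independent measurements of different RNAs.

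Hexamers of the sense strand were much commoner than their reverse complements and lay near the probe end. For each hexamer, the number of probes holding it was divided by the number holding only its reverse complement, which gave 4.21 for AATAAA and 1.91 for ATTAAA. The 17 other hexamers that differ from AATAAA by 1 base were counted in the probes outside the rule, where this ratio ran from 0.619 for AATTAA to 1.33 for AAGAAA. The 2 signals of the rule thus had the highest ratios of the hexamers counted.

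Position was measured as the number of bases between the end of the last hexamer and the end of the probe. In canonical-only members it was 0 to 20 bases in 74.3%, 21 to 40 in 20.6% and over 40 in 5.09%. The commonest distance was 14 bases, seen in 428 probes, and the median was 16 with quartiles of 11 and 21. Variant-only members had 69.4%, 22.9% and 7.66% in the same 3 ranges, a commonest distance of 15 bases and a median of 16. Members with both hexamers lay closest to the end, with 84.7% at 0 to 20 bases and a commonest distance of 4, seen in 14 probes. Holding several hexamers, of which only the last was measured, itself favours a short distance. Reverse complements were spread more widely, with 46.2%, 32.9% and 20.8% in the 3 ranges. The stretch from 10 to 24 bases, chosen after these counts were seen, held 64.3% of canonical-only, 56.6% of variant-only and 46.4% of double members against 30.5% of the comparison class. Of the 17 other hexamers, the largest shares in that stretch belonged to AGTAAA (45.3%), CATAAA (40.1%) and TATAAA (39.7%), and the smallest to AAAAAA (14.8%).

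Letters around the hexamer were compared next. Median GC content was 38.3% in canonical-only and variant-only members, 35% in members with both, 36.7% in the comparison class and 43.3% in probes with none of the 4 hexamers. TGTA before the hexamer started at 0.778 of 100 possible positions in canonical-only and 0.681 in variant-only members, against 0.735 in the comparison class and 0.548 in probes with none. A run of at least 6 A within the last 10 bases was found in 3.40% of canonical-only and 4.47% of variant-only members, against 1.37% of the comparison class and 1.68% of probes with none. The dinucleotide CA, often found at cleavage sites, started at 7.08 of 100 positions from 10 to 30 bases after the hexamer in canonical-only and 7.17 in variant-only members, against 6.75 in the comparison class. T made up 29.98% of the 20 bases after the hexamer in the 2033 canonical-only members that had that many, and 31.5% in the comparison class. ATTTA was held by 7.72% of canonical-only and 8.72% of variant-only members, while its 34.3% in the comparison class includes letters shared with TTTATT.

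Level here is log2 processed intensity minus the array's 75th percentile, so that a level of 0 is that percentile. A probe's brightness depends on its own sequence as well as on its target, so class medians describe the probes and are not amounts of RNA. Canonical-only members were the brightest class, with medians of -0.97, -0.99 and -0.97 on untreated arrays 1, 2 and 3 and -0.96, -0.98 and -1.02 on geniposide arrays 1, 2 and 3. Variant-only members had -1.83, -1.82 and -1.86 on the untreated and -1.81, -1.86 and -1.85 on the geniposide arrays. The comparison class had -2.76, -2.75 and -2.74 on the untreated and -2.71, -2.66 and -2.71 on the geniposide arrays. Over all distances together, the order canonical, variant, reverse complement therefore held on each of the 6 arrays, with no overlap between the classes' array values.

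The gap in median level between canonical-only members and the comparison class was 1.77 ± 0.0111 (SD, n = 3) on untreated and 1.71 ± 0.0343 (SD, n = 3) on geniposide arrays. For variant-only members the gap was 0.91 ± 0.0284 (SD, n = 3) and 0.85 ± 0.048 (SD, n = 3). Canonical-only exceeded variant-only members by 0.86 ± 0.0245 (SD, n = 3) on untreated arrays. The SD covers the spread between arrays carrying the same probes, not the spread between probes, whose quartiles were -5.58 and 2.35 in canonical-only members and -6.30 and 0.44 in the comparison class. Under normexp background correction the gaps on untreated arrays shrank to 1.13 and 0.51, more than any other alternative moved them. Members with both hexamers had a median of -2.42 ± 0.231 (SD, n = 3) on untreated arrays, 0.33 ± 0.233 (SD, n = 3) above the comparison class. The 85 of them with the last hexamer 10 to 24 bases from the end exceeded comparison probes of that stretch by 1.38 ± 0.0824 (SD, n = 3), close to the 1.33 ± 0.0465 (SD, n = 3) of variant-only members and below the 1.90 ± 0.0351 (SD, n = 3) of canonical-only members there.

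The brightest 10% of all analysed probes held 22.7% of canonical-only, 17.2% of variant-only and 16.4% of double members, against 10.0% of the comparison class and 6.91% of probes with none of the hexamers. RATLNCRNA_377, the brightest canonical-only member, had levels of 8.58, 8.36 and 8.37 on untreated and 8.25, 8.27 and 8.53 on geniposide arrays. RATLNCRNA_21444, the brightest variant-only member, had 8.38, 8.13 and 8.10 on untreated and 8.02, 8.02 and 8.19 on geniposide arrays. RATLNCRNA_38060, the brightest member with both, had 8.30, 8.12 and 8.07 on untreated and 7.86, 8.00 and 8.17 on geniposide arrays. The groups overlapped for each of these 3 probes, and none differed by limma (adjusted p = 0.75, 0.625 and 0.563).

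Detection differed less than level. On untreated arrays 74.2%, 73.8% and 72.6% of canonical-only members were well above background, and on geniposide arrays 73.8%, 71.7% and 69.8%. The comparison class had 69.8%, 68.5% and 67.1% on untreated and 69.4%, 66.9% and 63.8% on geniposide arrays. Canonical-only members were thus detected more often on each array, by 5.09 ± 0.606 percentage points (SD, n = 3) on untreated and 5.07 ± 0.845 (SD, n = 3) on geniposide arrays. Variant-only members exceeded the comparison class by 3.81 ± 0.526 points (SD, n = 3) on untreated arrays and double members by 7.69 ± 0.878 (SD, n = 3). All 6 arrays detected 68.9% of canonical-only, 67.3% of variant-only and 62.6% of comparison probes, while 23.2%, 24.3% and 26.7% were detected on no array. With the hexamer 0 to 20 bases from the end, the canonical-only excess was 2.55 ± 0.523 points (SD, n = 3) on untreated arrays. At up to 35% GC, mean detection over the 6 arrays was 68.9% in canonical-only, 67.6% in variant-only and 67.9% in comparison probes. At 10 to 24 bases in that GC range it was 68.8%, 68.1% and 70.9%, highest in the comparison class. Above 35 and up to 40% GC it was 72.0%, 71.3% and 67.5% over all distances.

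Members with the hexamer far from the probe end were dimmer. Canonical-only members at 0 to 20 bases had an untreated median level of -0.61 ± 0.0103 (SD, n = 3), those at 21 to 40 bases -1.42 ± 0.0558 (SD, n = 3) and those over 40 bases -3.48 ± 0.0449 (SD, n = 3). The span from the nearest to the farthest range was 2.87 in canonical-only members, 1.82 in variant-only members and 1.48 in the comparison class. Over 40 bases from the end, the level gap between canonical-only members and the comparison class was 0.25 ± 0.0566 (SD, n = 3) on untreated arrays, and detection differed by -0.206 ± 1.42 percentage points (SD, n = 3), less than the spread between arrays. In that range canonical-only members were dimmer than variant-only members by 0.24 ± 0.0661 (SD, n = 3), the opposite of the order nearer the end.

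In bins of 5 bases, canonical-only medians on untreated arrays stayed between -0.80 and -0.58 from the probe end up to 29 bases and were -2.58 at 30 to 34 bases, in 233 probes. Variant-only medians were highest at 10 to 14 bases, at -1.06, and at 15 to 19 bases, at -1.16, with -2.65 at 5 to 9 and -3.24 at 30 to 34 bases. The comparison class was brightest at 0 to 4 bases, at -1.50, and lay between -3.01 and -2.03 from 5 to 29 bases. Variant-only medians were above those of the comparison class from 10 to 24 and from 45 to 54 bases, and below them in every other bin. They were -1.64 ± 0.141 (SD, n = 3) against -1.50 at 0 to 4 bases, -2.65 against -2.03 at 5 to 9 and -3.24 against -2.86 at 30 to 34. Geniposide arrays gave -0.59 for canonical-only members at 10 to 14 bases and -2.69 at 30 to 34, so the step was seen in both groups.

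The gaps were also read within ranges of GC content, for hexamers 10 to 24 bases from the probe end. At up to 35% GC, the untreated medians were -1.0 ± 0.0237 (SD, n = 3) in canonical-only, -1.84 ± 0.0151 (SD, n = 3) in variant-only and -2.16 ± 0.0243 (SD, n = 3) in comparison probes. Above 35 and up to 40% GC they were -0.69, -1.70 and -2.17. Above 40 and up to 45% GC they were -0.50, -0.57 and -4.14, the widest separation of these 3 ranges. The order canonical, variant, comparison held in these 3 ranges, with the variant close to the canonical hexamer in the last. Above 45% GC the first 2 changed places, with 0.98 ± 0.0203 (SD, n = 3) in 227 canonical-only and 2.06 ± 0.031 (SD, n = 3) in 48 variant-only members. Over all distances at up to 35% GC, the untreated median was -1.13 in canonical-only members. It was -2.24 ± 0.0415 (SD, n = 3) in 808 variant-only and -2.26 ± 0.00675 (SD, n = 3) in 1133 comparison probes. Variant-only and comparison probes thus differed there by less than the spread between arrays. Above 35 and up to 40% GC they had -1.98 and -2.73, and above 40 and up to 45% GC -1.69 and -3.42.

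Features beside the hexamer went with brightness too. Among canonical-only members with the hexamer 10 to 24 bases from the end, 1046 with TGTA before it had an untreated median level of 0.13 ± 0.0037 (SD, n = 3), and 3383 without had -0.94 ± 0.0214 (SD, n = 3). For variant-only members the values were 0.08 ± 0.0236 (SD, n = 3) in 266 with and -1.62 ± 0.0254 (SD, n = 3) in 1011 without, so the 2 hexamers differed little where TGTA preceded them. A run of A at the probe end went with a median of 2.01 in 142 canonical-only members and 1.34 in 30 variant-only members, against -0.72 and -1.28 without it. ATTTA went with 0.23 against -0.72 in canonical-only members, and with -1.20 against -1.22 in variant-only members. These are descriptions across probes, and whether base composition or copying from the tail has a part in them was not tested.

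More hexamers did not go with brighter probes. The mean level over 6 arrays had a median of -1.21 in 8884 members with 1 hexamer, -1.69 in 421 with 2 and -4.61 in 21 with 3. RATLNCRNA_42117 was the sole member with 4, in the A-rich window aaAATAAAAATAAAcATTAAAAATAAAcat. Its levels were -5.78, -5.43 and -6.03 on untreated and -5.31, -5.35 and -5.35 on geniposide arrays, and it was well above background on 1 array of each group, so it was not tested.

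Members sharing 25 or more bases gave a comparison on the same or a related sequence. In 845 pairs a hexamer of the rule aligned between both probes at different distances from the end. The probe lying further downstream, in which the hexamer is farther from the end, was mostly the dimmer: the downstream minus upstream level had a median of -0.10 with quartiles of -0.36 and 0.05, and it was above 0 in 280 pairs. A shift of 1 to 5 bases gave -0.07 in 530 pairs, 6 to 15 bases -0.18 in 252 pairs, and 16 to 35 bases -0.60 in 63 pairs. Overlapping pairs with no member gave -0.03, -0.01 and 0.10 for the same shifts. These differences within pairs are smaller than the 2.87 between canonical-only members near to and far from the end, and were not tested.

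The family of 7 shown above held its level over most of that range. RATLNCRNA_8924, with 4 bases after the hexamer, had levels of 7.07, 6.99 and 7.00 on untreated and 6.86, 6.93 and 6.99 on geniposide arrays. RATLNCRNA_23770, with 19 bases after it, had 6.39, 6.25 and 6.25 on untreated and 6.25, 6.24 and 6.25 on geniposide arrays. RATLNCRNA_34476, RATLNCRNA_42373, RATLNCRNA_27642 and RATLNCRNA_45180 had mean levels of 6.78, 6.61, 6.35 and 6.74. RATLNCRNA_4792 stood apart at 0.52, 1.10 and 1.18 on untreated and 0.99, 0.99 and 1.04 on geniposide arrays, although its last 30 bases are those of RATLNCRNA_42373. Against RATLNCRNA_8924, counted from 1 at that probe's 5′ end, RATLNCRNA_4792 had C17T, G19A, G22C, A26G, C27T and A37G. RATLNCRNA_42373 had A8C, C9T, C11T, C13T, T14A, A15G and C17T. The same hexamer window thus stood on probes with mean levels of 6.61 and 0.97.

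Overlapping pairs of a canonical-only and a variant-only probe numbered 7. The canonical-only probe was the brighter in 6 of them, by a median of 0.19 over the 7 with quartiles of 0.06 and 1.58. That is below the 0.86 between the classes, in pairs too few to set against it.

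Members could be placed on the genome where all 60 bases matched a RefSeq promoter window, 250 bases before to 50 after a gene's start, which finds probes only where some gene starts nearby. This placement was chosen after the levels had been seen. It placed 51 members, and 29 of them (56.9%) ended within 35 bases of the annotated 3′ end of a gene on the same strand. The same was true of 5 of 15 placed comparison probes (33.3%) and 6 of 249 placed probes with none of the hexamers (2.41%). In the 29 members, the end of the hexamer lay a median of 18 bases before the annotated gene end, from 13 to 47. Their median level was 2.09, and 21 of the 29 were detected on all 6 arrays, while the 22 members placed elsewhere had a median of -3.52. Ndufa13 and Miox each carried more than 1 of the 29. The 5 comparison probes at gene ends had a median of 0.28, against -4.15 for those elsewhere. The 6 probes with none of the hexamers had -6.32, against -4.12 elsewhere. Exons and UTRs are not in the gene table used here, so the place is given as the distance to the gene's end.

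The brightest placed members lay at the end of Ndufa13, which encodes a subunit of mitochondrial complex I. RATLNCRNA_19914 (chr16:19567417-19567476, plus strand) ended 24 bases before the annotated end and RATLNCRNA_42842 (chr16:19567435-19567494, plus strand) 6 bases before it. The copy in the first ends 36 bases from the gene end, and the second holds that copy and another that ends 21 bases from it. Their mean levels were 6.89 and 6.32, and their geniposide minus untreated differences -0.12 and 0.05 by limma (adjusted p = 0.51 and 0.77). RATLNCRNA_23959 (chr8:89597056-89597115, minus strand) lay at the end of Cox7a2, a subunit of cytochrome c oxidase, with a level of 4.84. RATLNCRNA_44109 (chr1:87828654-87828713, plus strand) lay at the end of Sympk, which encodes symplekin, a scaffold of the cleavage and polyadenylation machinery itself, with a level of 3.85 and the hexamer 17 bases before the gene end.

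Variant hexamers stood at 4 of these ends. RATLNCRNA_19841 at Camta2, a transcription activator, had a level of 3.19, with ATTAAA 17 bases before the gene end. RATLNCRNA_4600 at Smim8 had 2.59, also 17 bases before it, RATLNCRNA_44437 at Higd1a, a mitochondrial protein induced by hypoxia, had 1.06, and RATLNCRNA_4869 at Exoc6, an exocyst subunit, had -1.83. All 4 were detected on all 6 arrays. Other members at gene ends gave no signal above background. RATLNCRNA_16109 at Tspan8, a tetraspanin, and RATLNCRNA_34165 at Unc13c, a presynaptic vesicle-priming protein, had levels of -7.48 and -7.34 and were detected on 0 arrays.

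A further 9 members matched inside a miRNA or small RNA precursor of the RefSeq hairpin table, 0.0725% of canonical-only, 0.133% of variant-only and 0.546% of double members against 0.499% of the comparison class and 1.13% of probes with none of the hexamers. RATLNCRNA_40505 lies in the Mir16 precursor at chr2:155555361-155555420, plus strand, and holds both hexamers, in agtgaAATAAAtATTAAAcaccaatattat. It had a mean level of -7.53 and was detected on 0 arrays. RATLNCRNA_21844, in the Mir23b precursor at chr17:1819386-1819445, minus strand, holds ATTAAA in ttgtgacttgagATTAAAatcacattgcca. It was the sole member of the 9 to be detected, on all 6 arrays, at -0.36, -0.45 and -0.53 on untreated and -0.18, -0.17 and -0.45 on geniposide arrays, which overlapped.

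Geniposide and untreated arrays were compared with limma over all 29246 tested probes, and members were then read from that table. In bulk RNA, less of a transcript per cell and fewer cells making it cannot be told apart. At an adjusted p under 0.05, 0 of 6675 members were called, where the share called among all tested probes was also 0%. The smallest adjusted p was 0.1004 in canonical-only and in variant-only members. At an unadjusted p under 0.05, limma gave 262 members higher and 433 lower with geniposide, 3.93% and 6.49% of those tested. Among all tested probes the shares were 7.33% higher and 5.05% lower, so members leaned to the lower side where the array as a whole leaned to the higher. Members were also brighter, so shares were read in 3 equal groups of probes by mean level. In the brightest, 0.772% of canonical-only members were higher and 6.03% lower, against 1.70% and 5.30% of all tested probes. The middle group gave 4.79% and 6.30% against 7.92% and 4.29%, and the dimmest 10.1% and 7.68% against 12.4% and 5.55%. Under quantile scaling 6.08% of members and 6.18% of all tested probes were lower, and with the authors' deposited log2 values the shares were 6.22% and 6.27%. The larger share of lower members than of all probes was thus not seen there. Higher members made up 3.57% and 3.39% in these settings, against 5.98% and 5.78% of all, so fewer members were still higher than lower. By class the counts were 180 higher and 318 lower of 4949 canonical-only, 73 and 107 of 1591 variant-only and 9 and 8 of 135 double members. Comparison probes gave 117 higher and 77 lower of 1584.

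Counts at an unadjusted p changed with the arrays and settings used, for members and for the whole array. Without untreated array 1, 2 or 3, members lower with geniposide numbered 252, 224 and 230, or 3.78%, 3.36% and 3.45%, against 3.33%, 3.26% and 2.99% of all tested probes. Without untreated array 3, 171 members (2.56%) were higher, against 5.11% of all. With the percentile taken over probes detected on all 6 arrays, 315 members (4.72%) were higher and 324 (4.85%) lower, against 8.37% and 3.75% of all. With no filter on dim probes, 444 members (4.76%) were higher and 306 (3.28%) lower, against 6.97% and 2.59% of all, so there members leaned to the higher side. The slide held 2 rows of arrays. Row 1 carried geniposide array 1 and the 3 untreated arrays, and row 2 carried geniposide arrays 2 and 3 alone. With slide row as a block, which compares geniposide array 1 with the untreated arrays, 224 members (3.36%) were higher and 244 (3.66%) lower, against 5.21% and 3.76% of all. With the replicate number as a block 231 (3.46%) were higher and 266 (3.99%) lower, against 6.95% and 3.62%. Under eBayes with trend and robust settings, 25 members passed an adjusted p of 0.05, 17 higher and 8 lower, or 0.375% of those tested against 0.592% of all tested probes.

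Arrays of the 2 groups did not overlap, with geniposide higher, for 391 members (5.86%) and, with geniposide lower, for 1190 (17.8%). The shares over all tested probes were 9.7% and 11.5%. Among canonical-only members, the lower side held 717 of 3727 (19.2%) at 0 to 20 bases from the probe end and 18 of 209 (8.61%) at over 40 bases. The tested members of these ranges differed in brightness, with median levels of 1.30 and -1.40. In the brightest of 3 equal groups by mean level, the lower side held 23.6% of canonical-only members and 19.5% of all tested probes. In the dimmest it held 9.01% and 6.13%. Whether position matters apart from brightness was not tested.

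The median geniposide minus untreated difference was -0.0444 in tested canonical-only, -0.0342 in variant-only and -0.0467 in double members, against -0.0148 in the comparison class and -0.0123 over all tested probes. The canonical-only and variant-only medians were below 0 under each scaling tried. Against the untreated mean, canonical-only medians were -0.0194, -0.0397 and -0.0661 on geniposide arrays 1, 2 and 3, while single untreated arrays ran from -0.0111 to 0.0102. Geniposide array 1, in the slide row of the untreated arrays, had the smallest of the 3. Over all analysed probes with no filter on dim probes, the medians were -0.0238 in canonical-only and -0.00604 in variant-only members, 0.0234 in the comparison class and 0.0444 in probes with none of the hexamers. Spike-in scaling moved the median of all tested probes by -0.124, members alike. Relative to all tested probes, the canonical-only median of -0.0321 was -0.0101 under quantile scaling, -0.0107 in the authors' deposited table and -0.0127 with slide row as a block. Members were brighter than the array as a whole, so the differences were also read within 3 equal groups of probes by mean level. In the brightest of these the median was -0.0551 in 2719 canonical-only and -0.0548 in 744 variant-only members, against -0.0455 in 583 comparison probes and -0.0430 over all tested probes. In the dimmest it was -0.0072 in canonical-only and 0.0072 in variant-only members against 0.0325 over all.

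RATLNCRNA_1588 was among the members with the smallest p-values. Its levels were -1.29, -1.24 and -1.32 on untreated and -0.80, -0.71 and -0.62 on geniposide arrays. All geniposide arrays lay above all untreated arrays, a difference of 0.57 ± 0.0651 (SE) that limma did not call (adjusted p = 0.1004). RATLNCRNA_10324 had -3.27, -3.17 and -3.30 on untreated and -2.56, -2.69 and -2.48 on geniposide arrays, a difference of 0.67 ± 0.073 (SE) with the same adjusted p. RATLNCRNA_40495, with the variant hexamer 35 bases from the probe end, had -3.74, -4.01 and -3.89 on untreated and -3.12, -3.08 and -3.13 on geniposide arrays. Its difference of 0.77 ± 0.0765 (SE) had the smallest unadjusted p of all tested members, 3.05e-05. RATLNCRNA_26384, also with the variant, was higher by 0.69 ± 0.0844 (SE).

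RATLNCRNA_30867 holds ATTAAA 1 base from its end and was the brightest of these probes, at 4.05, 4.03 and 4.01 on untreated and 4.44, 4.48 and 4.58 on geniposide arrays. The difference was 0.47 ± 0.057 (SE), with no overlap between groups. RATLNCRNA_25187, which overlaps it and holds the same hexamer at its very end, had 4.20, 4.10 and 4.06 on untreated and 4.53, 4.51 and 4.70 on geniposide arrays, a difference of 0.46. RATLNCRNA_27403 is of the same family but holds no hexamer, and its difference was 0.47. The 3 probes share target sequence, so they repeat 1 measurement rather than adding 3, and none passed the adjusted threshold (limma adjusted p = 0.1004, 0.124 and 0.124).

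RATLNCRNA_33182 had the largest difference of the 12, 0.85 ± 0.101 (SE), from -3.27, -3.37 and -3.52 on untreated and -2.39, -2.70 and -2.54 on geniposide arrays. Its family has 3 other members, whose sequences differ from it in some letters. RATLNCRNA_8187 had -5.34, -5.61 and -5.81 on untreated and -4.93, -4.79 and -4.16 on geniposide arrays. It was well above background on 3 geniposide arrays and 1 untreated array, so it entered the test only through the group where it was the higher and adds no support. RATLNCRNA_25325 and RATLNCRNA_33187 were too dim to be tested, with mean levels of -4.90 and -5.59.

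Of the members lower with geniposide, RATLNCRNA_16997, a variant-only member, had 0.13, 0.06 and 0.15 on untreated and -0.25, -0.30 and -0.31 on geniposide arrays. The groups did not overlap, and the difference was -0.40 ± 0.0534 (SE; limma adjusted p = 0.109). RATLNCRNA_22146 differed by -0.38 and the canonical-only members RATLNCRNA_12839, RATLNCRNA_19640 and RATLNCRNA_27731 by -0.47, -0.36 and -0.35, each with limma adjusted p = 0.124. RATLNCRNA_45214 differed by -0.63 ± 0.116 (SE) but was detected on 3 untreated arrays and 1 geniposide array. RATLNCRNA_43212, which overlaps it, was likewise detected on 3 and 1, and its groups overlapped. Both entered the test only through the untreated group, where they were the higher, so the sizes of their differences are uncertain. Of the 12 members, 10 passed an adjusted p of 0.05 under trend and robust settings, RATLNCRNA_12839 and RATLNCRNA_45214 being the exceptions. RATLNCRNA_30867 had the smallest adjusted p there, 0.00949. Under normexp background correction, differences shrank by over 1.5 times in 6 of the 12, those with mean levels from -4.59 to -2.91. They became 0.32 for RATLNCRNA_10324, 0.39 for RATLNCRNA_33182, 0.26 for RATLNCRNA_40495, 0.29 for RATLNCRNA_26384, -0.23 for RATLNCRNA_12839 and -0.12 for RATLNCRNA_45214, the last also -0.39 with slide row as a block.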

How the data were processed

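The deposited scanner files hold processed intensity per spot, with background and spatial trend already subtracted by Agilent Feature Extraction 12.0.3.1, per the file headers (the submitters' processing notes name version 10.7 and limma). A log2 table from the authors, also deposited, served as an alternative, and its normalization is not given in the sources used here. Log2 processed intensity minus each array's 75th percentile was averaged over the unmarked spots of a probe. A probe with 2 spots counted as well above background only if each unmarked spot was. Probes that every array of 1 or both groups showed well above background were tested by two-sided moderated tests on group over 6 arrays (limma 3.58.1 under R 4.3.3, default eBayes), with Benjamini-Hochberg adjustment over all tested probes. The fit and the sequence search were tested on simulated data. The number of arrays limits the precision.

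Named probes were the 3 canonical-only and 3 variant-only members with the smallest p in each direction, the 2 brightest members of each class without overlap, the family with most members around 1 aligned hexamer, and members with 4 or more hexamers. Probes at gene ends, in hairpins or overlapping a named probe were added after values were seen. Members and lists were chosen with earlier results of these data known. Gene and precursor positions are RefSeq's, build GRCr8, from exact 60-base matches. Alternatives covered background, scaling, filters, variance model, weights, slide row, replicate number, single arrays left out, marked spots and families.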

Additional observations from a re-analysis of the deposited data

How the results depend on the processing

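The level gaps, the canonical-only detection gap, the distance span and the 2 median differences kept their sign under the alternatives run, while other gaps between classes had none. On untreated arrays the canonical-only level gap of 1.77 was 1.13 under normexp, 1.76 under quantile scaling, 1.75 in the deposited table, 1.56 under the stricter filter, 1.67 without members on both strands, 1.51 with 1 probe per family and 1.60 over tested probes alone, an alternative added after seeing the data. The variant-only gap of 0.91 was 0.51 under normexp, 0.83 under the stricter filter, 0.82 without members on both strands, and 0.79 both with 1 probe per family and over tested probes. Leaving out 1 untreated array kept these gaps at 1.77 to 1.78 and 0.91 to 0.93. They are read on untreated arrays, so leaving out a geniposide array could not change them. No filter is their own setting. The detection gap of 5.09 points, also read on untreated arrays, was 4.14 with 1 probe per family and 4.85 to 5.43 with an untreated array left out. The distance span of 2.87 was 2.75 between the outermost 10-base bins. Median differences of -0.0444 and -0.0342 were -0.169 and -0.158 under spike-in scaling, and the variant-only one was -0.00604 with no filter. With an array left out they ran from -0.0525 to -0.0306 and from -0.0428 to -0.0216. Under quantile scaling the canonical-only median, -0.0236, lay above the variant-only one, -0.0239, the reverse of their main order.

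Calls at an adjusted p under 0.05 numbered 0 in the main analysis and with any array left out, but 25 under spike-in scaling (11 higher, 14 lower), 25 under trend and robust settings and 8 under array weights, or 0.375%, 0.375% and 0.12% of members against 0.431%, 0.592% and 0.185% of all tested probes. Higher members at an unadjusted p, 262, were 169 under normexp, 52 under spike-in scaling, 444 with no filter (2.53%, 0.779% and 4.76%, against 4.21%, 1.36% and 6.97% of all) and 171 to 282 with an array left out. Lower members, 433, were 306 with no filter, 130 under spike-in scaling, 675 under trend and robust settings (3.28%, 1.95% and 10.1%, against 2.59%, 2.36% and 6.43% of all), 244 with slide row as a block, 266 with the replicate block and 224 to 483 with an array left out. Same-numbered arrays did not deviate together (correlations of -0.00392, 0.0181 and -0.0971), which cannot show whether the samples were handled as pairs. The replicate block called 0 members, as did the main analysis. The causes were not tested.

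The 12 members with the smallest p kept their direction in all 215 refits, with sizes over 1.5 times smaller in 6 under normexp. They had been chosen for that small p on the same arrays, so the kept direction adds no support. Of the 13 other named members, none called, 7 changed sign in 21 of 234 refits. Under quantile scaling these were RATLNCRNA_377 (0.0308), RATLNCRNA_21444 (0.00341), RATLNCRNA_13567 (0.0137), RATLNCRNA_42373 (0.000366) and RATLNCRNA_45180 (0.0321). In the deposited table they were RATLNCRNA_377 (0.0156), RATLNCRNA_13567 (0.0041), RATLNCRNA_42373 (0.00653) and RATLNCRNA_45180 (0.0391), the last also 0.00394 with the percentile over detected probes. RATLNCRNA_4792 was -0.0536 under spike-in scaling and -0.00101 under array weights. RATLNCRNA_27642 was -0.0631 under normexp, -0.121 under spike-in scaling, -0.00187 under array weights and -0.0265 with slide row as a block. With 1 array left out, RATLNCRNA_13567 ran from -0.147 to 0.0106, RATLNCRNA_4792 from -0.134 to 0.192, RATLNCRNA_45180 from -0.0437 to 0.000486, and RATLNCRNA_27642 from -0.0171 to 0.01995.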
